A study of Danio rerio with 24 samples.

Results

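The genes described here mark the filtering and resorbing parts of the kidney: slc15a2, hnf4a, hnf1ba, cdh17, lrp2a, cubn, nphs1, podxl and agxt2. They were taken by symbol from a list of 9, and 8 of them were measured among the 14781 genes counted in each RNA library; cubn was not analysed here. The fish were EK zebrafish, all adult males aged 4 to 12 months. Kidney marrow and brain were sampled after cardiomyocyte ablation (n = 2 libraries each) and from uninjured fish (n = 2 each), all labelled wild type. A second set holds brains of ablated cebpd homozygous knockout fish (n = 3) and ablated wild type fish (n = 3). Tissue was taken 7 days after a 17 h bath in tamoxifen at 0.5 to 0.7 µM, the step that ablates heart muscle cells. The labels name neither the transgene behind the ablation nor its promoter, and do not say whether uninjured fish had the bath or whether replicates are separate animals. P-values therefore measure only the spread between these libraries, which may be technical.

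In fish the kidney is both a filter and the site of blood formation, so a sample of whole kidney holds nephrons beside the marrow that fills the space between them. A nephron starts at the glomerulus, where podocytes with interlocking foot processes form the slit diaphragm, and continues into a proximal tubule that recovers proteins, peptides, sugars and salts, then a distal tubule and a collecting duct. The lists of nephron genes used below follow these segments.

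The kidney marrow libraries held 16045360 to 20469655 reads in genes, the brain libraries of the ablation experiment 14364306 to 17731325, and those of the cebpd experiment 4377028 to 6280007. Levels are given as CPM, the read counts of a gene relative to the size of its library, with library sizes scaled by TMM. CPM are not divided by transcript length and are compared between libraries only. Markers of the labelled tissue were present. edgeR called 10 of 10 neutrophil genes and 11 of 11 erythroid genes higher in uninjured kidney marrow than in uninjured brain (adjusted p under 0.05). It called 39.2% of 12936 genes higher. Of these markers, 8 neutrophil and 11 erythroid genes passed the filter on low counts in brain. The other neutrophil genes entered this fit through their kidney marrow reads and are given as a description.

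The 7 nephron genes that passed the filter on low counts in brain were also higher in uninjured kidney marrow than in uninjured brain, by the same test, where 39.2% of 12936 genes were. cdh17, a cadherin used in zebrafish to mark tubule and duct, had 3928 and 4107 CPM in uninjured kidney marrow and 8.79 and 11.6 CPM in uninjured brain. Its log2 fold change was 8.63 (SE 0.17, adjusted p = 9.42e-07). hnf1ba had 7.20 (SE 0.20), lrp2a 5.21 (SE 0.14), agxt2 4.76 (SE 0.13), slc15a2 4.04 (SE 0.16) and nphs1 3.14 (SE 0.20) as log2 fold changes. podxl had the smallest, at 0.92 (SE 0.10, adjusted p = 0.000307), with 139 and 156 CPM in uninjured kidney marrow and 79.4 and 76.4 CPM in uninjured brain. hnf4a entered this fit through its kidney marrow reads alone, with 86.3 and 92.3 CPM there and 7 and 6 reads in uninjured brain, and is given as a description. podxl encodes podocalyxin, a surface sialomucin of podocytes that vascular endothelium and blood progenitors carry as well.

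In kidney marrow, slc15a2, lrp2a, cdh17, hnf4a and hnf1ba stood lower in CPM in both ablated libraries than in both uninjured ones (scaled to the other nephron genes, cdh17 had a log2 fold change of 0.014 where the median of all genes was 0.27), and the podocyte genes did not separate by group. In bulk tissue, fewer cells of a type and less RNA per cell cannot be told apart. edgeR called none of the 8 genes, nor any gene of 12160 (0.0% higher and 0.0% lower; smallest adjusted p = 0.0740). At an unadjusted p under 0.05 it gave 4 of the 8, all lower, and 2384 genes in all, of which 892 (7.34%) were lower and 1492 (12.3%) higher. DESeq2 called 2 of the 8 lower, and 173 genes lower (1.42%) and 418 higher (3.44%).

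Uptake and transport come first along the tubule. lrp2a encodes megalin, the endocytic receptor with which proximal tubule cells take up filtered protein. It had 756 and 969 CPM in ablated kidney marrow, against 1088 and 1339 CPM in uninjured kidney marrow. Both ablated libraries lay below both uninjured ones, but replicates lay further apart within each group than the nearest libraries of the groups did. The log2 fold change of lrp2a was -0.49 (SE 0.18, 95% interval -0.94 to -0.05, edgeR adjusted p = 0.223).

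slc15a2 encodes a proton-coupled peptide transporter of the brush border. Its levels were 116 and 107 CPM in ablated kidney marrow and 177 and 182 CPM in uninjured kidney marrow. The groups did not overlap, and replicates lay close together in both. The ablated mean was 62.0% of the uninjured one, a log2 fold change of -0.69 (SE 0.10, 95% interval -0.95 to -0.43, edgeR adjusted p = 0.0853). DESeq2 gave slc15a2 an adjusted p of 0.000384, and over 12 alternatives the adjusted p ran from 0.000384 to 0.323.

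agxt2 encodes a mitochondrial aminotransferase that in mammals is abundant in kidney and liver. It had 149 and 168 CPM in ablated kidney marrow and 161 and 186 CPM in uninjured kidney marrow, so the groups overlapped. Its log2 fold change was -0.13 (SE 0.13, 95% interval -0.45 to 0.19, edgeR adjusted p = 0.604). Liver markers were higher as a sum in the same ablated libraries, at 460 and 735 CPM after ablation, against 285 and 341 CPM in uninjured kidney marrow. Of the 14 tested, 11 had a fold change above 0 and 3 below. In each library 8 to 12 of the 20 markers were under 5 CPM, with 0 to 2 at 0. Their part in the agxt2 and hnf4a values was not tested.

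A pair of the genes encodes transcription factors of the tubule. hnf4a, a nuclear receptor that directs proximal tubule and liver genes in mammals, had 52.9 and 53.5 CPM in ablated kidney marrow, against 81.9 and 88.1 CPM in uninjured kidney marrow. As with slc15a2, the groups lay far apart relative to the distance between replicates. The log2 fold change of hnf4a was -0.68 (SE 0.10, 95% interval -0.93 to -0.42, edgeR adjusted p = 0.0859). DESeq2 called it at an adjusted p of 0.00158, and 12 alternatives gave 0.00158 to 0.347.

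hnf1ba, a homeodomain factor needed for segment identity in the zebrafish pronephros, had 520.0 and 566 CPM in ablated kidney marrow. The uninjured libraries had 670.3 and 905 CPM. The groups did not overlap, and the uninjured libraries lay further from each other than the nearest libraries of the groups did. Its log2 fold change was -0.54 (SE 0.17, 95% interval -0.97 to -0.10, edgeR adjusted p = 0.193), and -0.30 without uninjured replicate 2. hnf1ba has a close copy in hnf1bb, which had 928 and 798 CPM after ablation and 975 and 1118 CPM in uninjured kidney marrow (log2 fold change -0.28, SE 0.14). How reads that match both copies were counted is not given in the sources used here.

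cdh17 had 3131 and 3248 CPM in ablated kidney marrow, against 3728 and 3919 CPM in uninjured kidney marrow. The 4 libraries fell into their groups without overlap, at the smallest fold change of the 5 genes that separated. Its log2 fold change was -0.26 (SE 0.11, 95% interval -0.55 to 0.02, edgeR adjusted p = 0.281).

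The podocyte genes overlapped between groups. nphs1, which encodes nephrin, the adhesion protein of the slit diaphragm, had 20.9 and 27.1 CPM in ablated kidney marrow and 19.8 and 24.9 CPM in uninjured kidney marrow. These rest on 343 to 574 reads per library, the fewest of the 8 genes. Its log2 fold change was 0.11 (SE 0.19, 95% interval -0.38 to 0.59, edgeR adjusted p = 0.791). podxl had 139 and 136 CPM after ablation and 132 and 149 CPM in uninjured kidney marrow, a log2 fold change of -0.03 (SE 0.11, 95% interval -0.30 to 0.25, edgeR adjusted p = 0.912). Beside podxl, endothelial markers stood higher in the ablated libraries, at a summed 1778 and 1302 CPM against 834 and 775 CPM in the uninjured ones, with 7 of 8 above 0 in fold change and none at 0 CPM. Their part in the podxl value was not tested.

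**Figure D1:**
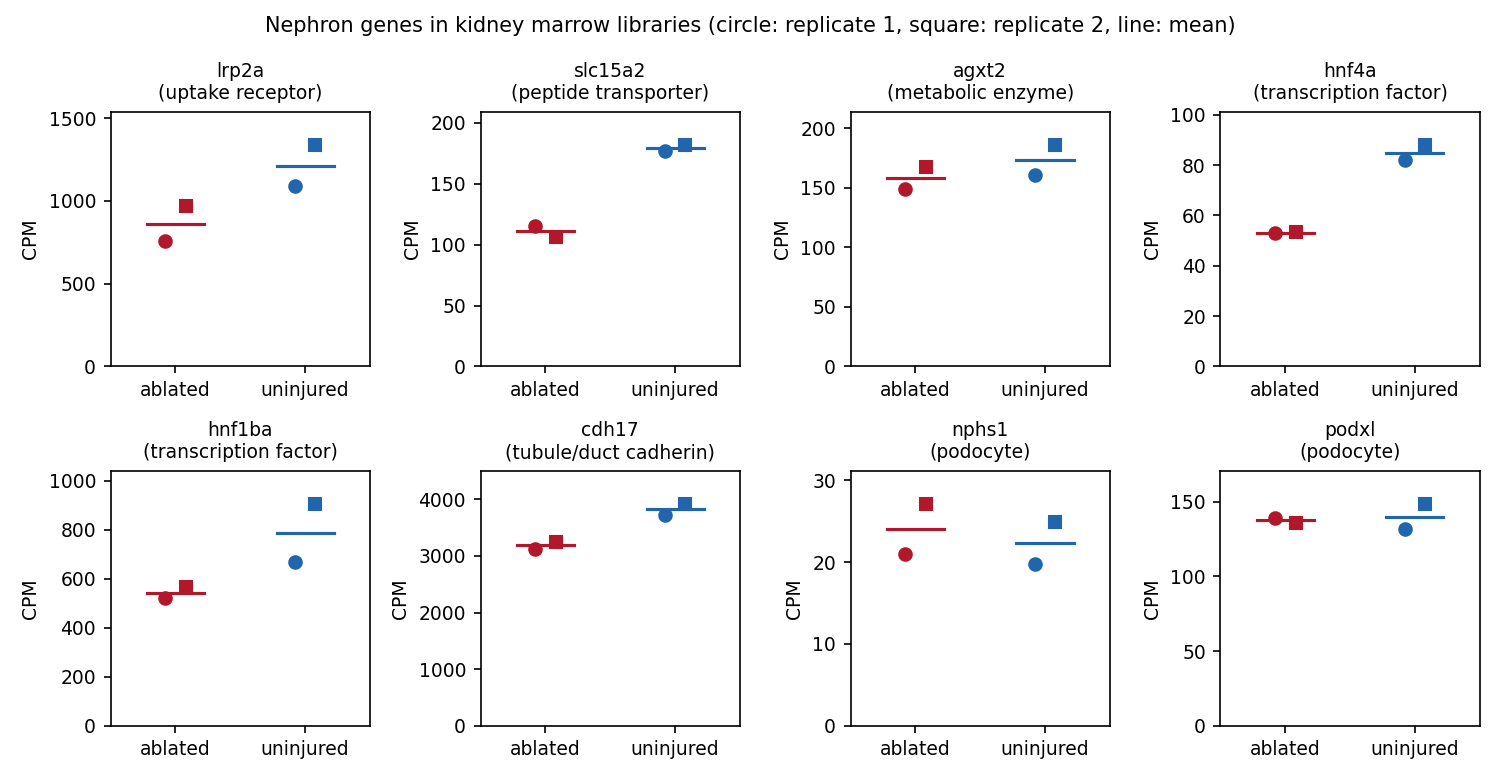
Level of each of the 8 nephron genes in CPM (vertical axes, from 0) in the kidney marrow libraries, with ablated on the left and uninjured on the right of each panel; circles are replicate 1, squares replicate 2 and lines the mean of 2 libraries. The ablated points lie below the uninjured ones for lrp2a, slc15a2, hnf4a, hnf1ba and cdh17, and overlap them for agxt2, nphs1 and podxl.

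In all, 5 of the 8 genes had both ablated libraries below both uninjured ones, which 24.3% of the 12160 tested genes had, and 0 of 8 had them above, which 27.7% had. In a fit that also held the brain libraries, edgeR called slc15a2 (adjusted p = 0.0169), hnf4a (adjusted p = 0.00976) and hnf1ba (adjusted p = 0.0459) lower, among 440 lower genes (3.36%) and 912 higher ones (6.97%) of 13077. That fit took the spread of each gene from both tissues together, so its p-values do not measure the spread of kidney marrow alone. Fitted separately, the biological coefficient of variation was 16.4% in kidney marrow and 5.56% in brain. The adjusted p of hnf1ba ran from 0.0459 to 0.521 over 12 alternatives.

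Genes of the whole nephron, the 8 included, were followed in 6 lists that cover 156 genes, of which 119 were counted and 106 passed the filter on low counts in kidney marrow. In the fit of the 4 kidney marrow libraries edgeR called none of the 106. DESeq2 called 10 of them lower and 1 higher, where it called 1.42% of all tested genes lower and 3.44% higher. In the fit with the brain libraries edgeR called 15 lower and 0 higher, where 3.36% of all genes were lower and 6.97% higher. Of the 106, 84 had a fold change below 0 and 22 above, where 51.0% of all tested genes were below 0, with a median of -0.26 against -0.01 for all genes. Both ablated libraries lay below both uninjured ones for 58 and above for 9, where 24.3% of all tested genes lay below and 27.7% above. Without uninjured replicate 2 the count below 0 was 72 and the median -0.19. Scaling to the reads of the other nephron genes centres these lists near 0 by construction, with 50 below 0, 56 above and a median of 0.028. All genes then had a median of 0.27, so the lists stood 0.24 below all genes on that scale and 0.25 below on CPM. The change of scale shifts nearly all genes by a similar amount, so these distances are alike by construction.

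The lists did not all stand at the same level. The podocyte list had 10 of 17 genes below 0 and a median of -0.03. Proximal uptake genes had 7 of 7 below 0 (median -0.15), proximal transport genes 17 of 23 (median -0.34) and proximal metabolism genes 16 of 19 (median -0.34). For the distal tubule and duct it was 14 of 17 (median -0.28), and for transcription factors 20 of 23 (median -0.28). The lists were not tested against each other, and none of these counts is a test.

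Among proximal genes with the highest levels, slc22a2, a transporter of organic cations, had 4791 and 4689 CPM in ablated kidney marrow, against 7057 and 7422 CPM in uninjured kidney marrow. The groups did not overlap, and the log2 fold change of slc22a2 was -0.61 (SE 0.12, edgeR adjusted p = 0.0999). DESeq2 called slc22a2 lower at an adjusted p of 0.000399. So did edgeR in the fit with the brain libraries (adjusted p = 0.0126), which takes its spread from both tissues. The scaffold gene pdzk1, whose protein anchors transporters in the brush border, had 668 and 652 CPM after ablation and 972 and 972 CPM in uninjured kidney marrow (log2 fold change -0.56, SE 0.10). DESeq2 called pdzk1 lower as well (adjusted p = 0.00166), with slc6a19b (adjusted p = 0.00546) and slc5a12 (adjusted p = 0.0162), and so did edgeR in the fit with the brain libraries (adjusted p of 0.0273, 0.0283 and 0.0137 in the same order). The neutral amino acid transporter gene slc6a19b (-0.53), the monocarboxylate transporter gene slc5a12 (-0.49), the phosphate transporter gene slc20a1a (-0.34), the gluconeogenesis gene fbp1b (-0.64) and dab2 (-0.35), which encodes the endocytic adaptor of megalin, had log2 fold changes below 0 without overlap. So did lrpap1 (-0.14), the chaperone of megalin, and ddc (-0.22), which makes dopamine from its precursor. The glycine-cleavage gene gldc (-0.22) and pdzk1ip1 (-0.14) overlapped between groups.

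Beyond the proximal tubule, slc12a3, the thiazide-sensitive sodium-chloride cotransporter of the distal tubule, had 995 and 1146 CPM in ablated kidney marrow, against 1406 and 1434 CPM in uninjured kidney marrow (log2 fold change -0.41, SE 0.12, edgeR adjusted p = 0.168). The sodium pump genes atp1a1a.4 (-0.14, no overlap) and atp1a1a.3 (-0.31, overlapping) are neighbouring copies that could share reads. The ammonia transporter gene rhcgb had 358 and 479 CPM after ablation and 280.4 and 676 CPM in uninjured kidney marrow, the widest spread within a group of the genes named by level. The transcription factor genes pax2a (-0.19), irx1a (-0.40) and irx3b (-0.46), which act in nephron patterning, did not overlap between groups. In the podocyte list the actin crosslinker gene actn4 overlapped (-0.01), while mafba (-0.20), dag1 (-0.20) and cd2ap (-0.20) did not.

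**Figure D2:**
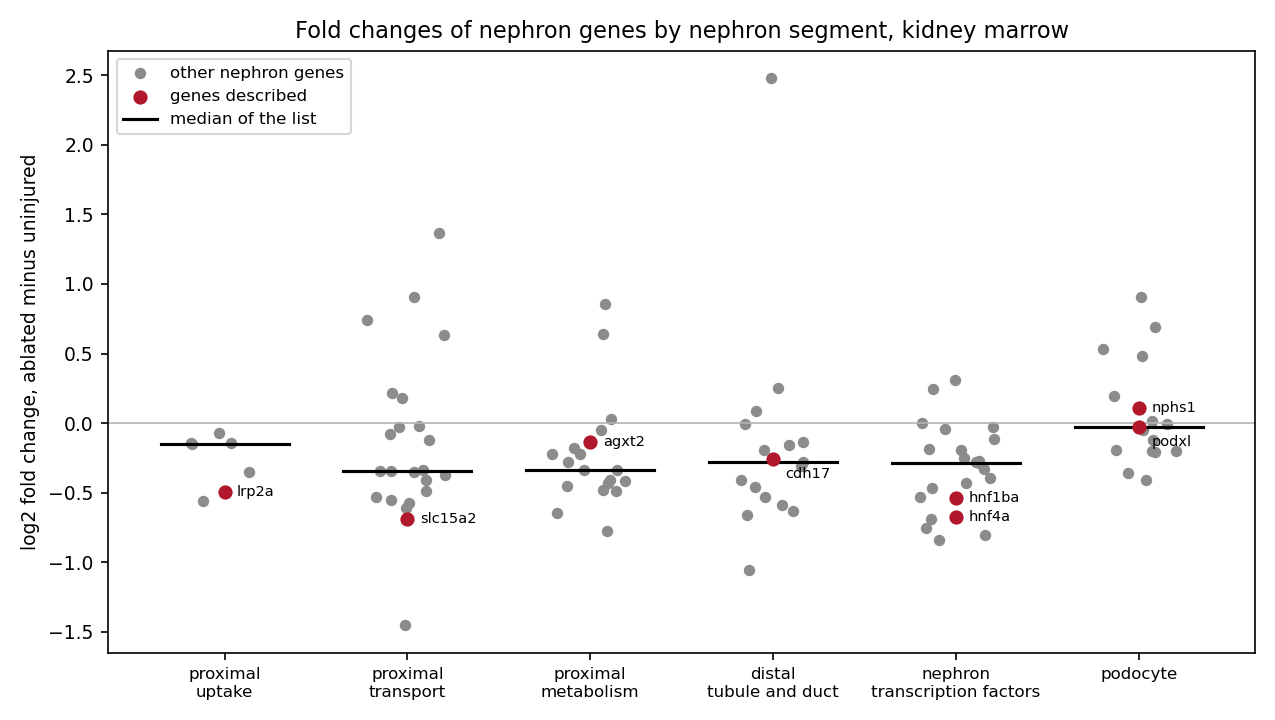
Log2 fold change, ablated minus uninjured kidney marrow (vertical axis), of the 106 tested nephron genes by list; red points are the genes described above, grey points the other nephron genes and black lines the medians of the lists. The median is -0.03 for the podocyte list and -0.15 to -0.34 for the others on TMM-scaled levels, where the median of all genes is -0.01; scaled to the other nephron genes, all points shift upwards and the median of all genes is 0.27.

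The genes were then compared library by library over the 4 kidney marrow libraries. Uninjured replicate 2 was the highest library for 7 of the 8 genes; for nphs1 it was ablated replicate 2. The 5 genes that separated by group have the uninjured libraries above the ablated ones by selection. Only the order within a group was free. Within the uninjured group, replicate 2 lay above replicate 1 for 8 of 8 genes, where 50.1% of all tested genes did, with a median log2 difference of 0.19. Within the ablated group, replicate 2 lay above replicate 1 for 6 of 8, where 50.4% did. The other nephron genes had 72 of 98 and 56 of 98 in the same directions. With 4 libraries no correlation is given.

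**Figure D3:**
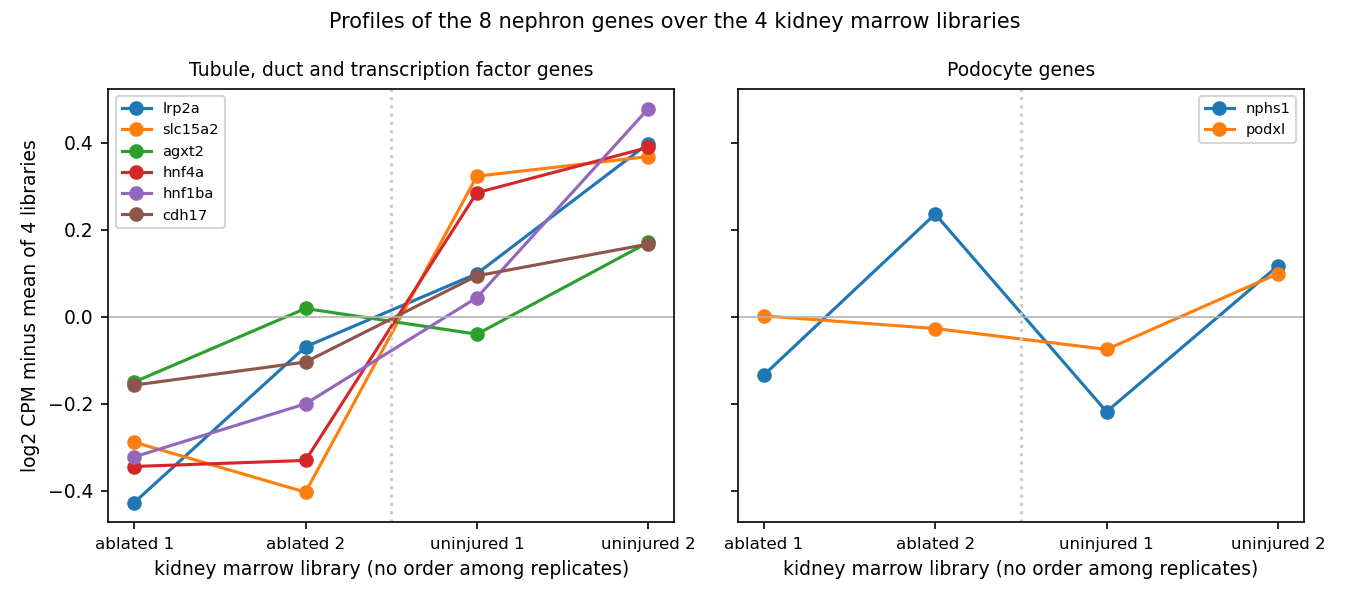
Log2 CPM of each gene minus its mean over the 4 kidney marrow libraries (vertical axis), for ablated replicates 1 and 2 and then uninjured replicates 1 and 2 (horizontal axis); the left panel holds the tubule and transcription factor genes and the right panel nphs1 and podxl. Lines join the values of 1 gene. Uninjured replicate 2 is the highest point of 7 of the 8 genes, at 0.48 for hnf1ba, and ablated replicate 2 that of nphs1, at 0.24.

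The reads of the 111 other nephron genes give a measure of nephron RNA in each library that does not use the 8 genes. They took 3.37% and 3.80% of gene reads in the ablated libraries, against 3.86% and 4.35% in the uninjured ones, and ddc, slc22a2 and atp1a1a.4 supplied 42.9% of them. Ablated replicate 2 and uninjured replicate 1 were nearly level by this measure. When each gene was divided by it, the spread over the 4 libraries shrank for 6 of the 8 genes, where it did for 31.9% of all tested genes. The divisor itself was lower in both ablated libraries than in both uninjured ones. The shrinking therefore includes the difference between groups that a gene shares with it, and does not show covariation apart from that difference. The SD of log2 level was 0.05 for cdh17 after the division, against 0.16 before it. For lrp2a the SD was 0.17 after and 0.34 before, and for hnf1ba 0.19 after and 0.35 before. slc15a2 kept an SD of 0.27 (0.40 before) and hnf4a of 0.24 (0.39 before). For nphs1 the SD was 0.25 after and 0.21 before, and for podxl 0.16 after and 0.07 before, so these podocyte genes varied more against the nephron reads than against all gene reads.

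On that scale the ablation contrast differed in size from the one on CPM. The log2 fold change was 0.01 for cdh17, -0.22 for lrp2a, -0.26 for hnf1ba, -0.40 for hnf4a and -0.41 for slc15a2. agxt2 had 0.14, podxl 0.25 and nphs1 0.38, where the median of all genes stood at 0.27. edgeR called none of the 8 (adjusted p from 0.123 to 0.91), with slc15a2 and hnf4a at an unadjusted p under 0.05, and called 34 genes higher and 0 lower; DESeq2 was not run on this scale. What share of tubule tissue each library held was not measured in any other way. Reads outside genes took 37.4% and 39.8% of the total in the ablated libraries, against 40.0% and 41.5% in the uninjured ones. The libraries thus stood in the same order for reads outside genes as for the nephron reads. The part of this in the nephron values was not tested.

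Ratios between pairs of genes within a library need no library size at all. Of the 28 pairs among the 8 genes, 19 had ratios that did not overlap between ablated and uninjured kidney marrow, as 51.0% of all pairs of tested genes had; the 28 pairs share genes. The steadiest pair was slc15a2 and hnf4a. There were 2183 and 1996 reads of slc15a2 per 1000 reads of hnf4a in the ablated libraries, against 2156 and 2068 in the uninjured ones. The log2 ratio had an SD of 0.06 over the 4 libraries, and 0.0905% of all tested genes were steadier against slc15a2 than hnf4a was. podxl and agxt2 (SD 0.10) and cdh17 and agxt2 (SD 0.11) came next, though 11.8% of genes were steadier against podxl than agxt2 was and 8.55% were steadier against cdh17. The next pair was hnf1ba and lrp2a, with 688 and 584 reads of hnf1ba per 1000 of lrp2a after ablation, against 616 and 676 in uninjured kidney marrow (SD 0.11; 1.22% of genes were steadier against hnf1ba). This steadiness includes the difference between groups that the genes of a pair share.

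At the other end, the log2 ratio of slc15a2 to nphs1 had the largest SD of the 28 pairs, at 0.51. Per 1000 reads of nphs1 there were 5519 and 3937 reads of slc15a2 in ablated kidney marrow, against 8940 and 7304 in uninjured kidney marrow. lrp2a had 36090 and 35750 reads per 1000 of nphs1 after ablation, against 55100 and 53700 in uninjured kidney marrow. Replicates nearly coincided for that ratio in both groups, though the levels of both genes differed between replicates.

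Genes outside the lists were ranked by how near their centred log2 level came to the mean profile of the 8 genes over the 4 kidney marrow libraries. The nearest were atp5s, aplp2, cx30.3, gatad2b, hmgb3a and pank2, with root mean square differences of 0.0086 to 0.0187 on the log2 scale. Such likeness was common: 735 of 9360 candidates (7.85%) lay within 0.1, and 1680 (17.9%) lay nearer than the median of the 8 genes themselves (0.144). Of these 6, aplp2, gatad2b, hmgb3a and pank2 had higher CPM in uninjured brain than in any kidney marrow library. pank2 had 60.5 and 67.7 CPM in ablated and 76.4 and 86.6 CPM in uninjured kidney marrow, and 931 and 967 CPM, not scaled by TMM, in uninjured brain. A profile like that of the nephron genes over these 4 libraries was thus also found in genes with higher levels in brain.

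Markers of other cells in the kidney also differed between these libraries, though edgeR called none of them. Cell cycle genes had a summed level of 2003 and 1687 CPM in ablated kidney marrow, against 1126 and 736 CPM in uninjured kidney marrow, with 15 of 15 fold changes above 0. Erythroid genes summed to 12690 and 7646 CPM after ablation and to 8856 and 5973 CPM in uninjured kidney marrow (11 of 11 above 0), and thrombocyte and progenitor genes to 678 and 667 CPM against 477 and 502 CPM (9 of 11). In the cell cycle and erythroid lists uninjured replicate 2 was the lowest library, the one that was highest for 7 of the 8 nephron genes. Lymphocyte genes summed to 49.1 and 45.3 CPM after ablation and to 64.4 and 73.0 CPM in uninjured kidney marrow (0 of 8 above 0), and macrophage genes to 1589 and 1812 CPM against 2025 and 2189 CPM (4 of 9). No cell cycle, erythroid, thrombocyte, lymphocyte or macrophage marker was at 0 in a library. Their part in the nephron values was not tested.

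Of the remaining lists, striated muscle alone did not overlap between ablated and uninjured kidney marrow in its summed level. Neutrophil genes summed to 5016 and 5563 CPM against 5621 and 5368 CPM (4 of 10 above 0). Interrenal and chromaffin genes, from the steroid and catecholamine tissue inside the fish kidney, summed to 130.5 and 178 CPM against 199 and 151 CPM (3 of 13). Neighbouring tissues that a dissection could carry along were low: exocrine pancreas genes summed to 21.6 and 35 CPM against 32.2 and 51.6 CPM (3 of 10), and germ cell genes to 29.4 and 68.6 CPM against 99.1 and 38.2 CPM (0 of 7). Striated muscle genes summed to 227 and 97.5 CPM against 391 and 234 CPM (1 of 15). Of these, neutrophil and interrenal markers were all above 0 CPM in every library, and each other list had 0 to 2 markers at 0.

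In the brain the same contrast gave 1 call among the 7 genes that passed the filter. podxl fell: it had 68.7 and 65.3 CPM in ablated brain, against 87.5 and 84.3 CPM in uninjured brain. Both ablated libraries lay below both uninjured ones and replicates lay close together. The log2 fold change was -0.36 (SE 0.07, 95% interval -0.50 to -0.22, edgeR adjusted p = 0.0418), where 0.17% of 12371 genes were called lower and 0.283% higher (0.453% in all). Leaving out uninjured replicate 1 ended the call (-0.33, edgeR adjusted p = 0.159), as did leaving out uninjured replicate 2 (-0.39, edgeR adjusted p = 0.104); the adjusted p ran from 2.54e-06 to 0.159 over 8 alternatives. Endothelial markers summed to 228 and 227 CPM in ablated brain and 193 and 204 CPM in uninjured brain, with 2 of 8 called higher. Their part in the podxl value was not tested.

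The other genes did not pass in the brain. Counting podxl, 2 of the 7 lay lower in both ablated libraries and 1 of 7 higher, where 18.0% of all tested genes lay lower and 18.1% higher. lrp2a had 38.9 and 35.4 CPM in ablated brain and 38.3 and 37.7 CPM in uninjured brain (log2 fold change -0.04, SE 0.08). slc15a2 had 14.0 and 11.8 CPM against 10.8 and 14.6 CPM (0.02, SE 0.16), and cdh17 had 11 and 8.43 CPM against 9.69 and 12.8 CPM (-0.22, SE 0.17). agxt2 also overlapped (-0.13, SE 0.16). hnf1ba, at 5.96 and 5.05 CPM against 6.38 and 6.0 CPM (-0.18, SE 0.18), and nphs1, at 3.30 and 3.55 CPM against 2.75 and 3.1 CPM (0.23, SE 0.23), did not overlap, at adjusted p of 0.912 each. hnf4a was below the filter, with 32 reads over the 4 libraries.

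An interaction term over the 8 libraries of the ablation experiment tested whether the effect in kidney marrow differed from that in brain. edgeR called none of the 8 genes, where it called 0.26% of 13077 genes, and DESeq2 called none of them either (1.2% of all genes higher and 0.65% lower). At an unadjusted p under 0.05 edgeR gave 2091 of the 13077 genes. Among them were slc15a2 (-0.72, SE 0.20, adjusted p = 0.141), podxl (0.33, SE 0.12, adjusted p = 0.244) and hnf4a (-1.12, SE 0.35, adjusted p = 0.252). hnf4a entered this fit through its kidney marrow reads, and its brain side rests on the 32 reads given above. A different response of these genes in the 2 tissues was thus not shown.

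In ablated brain, 5 of the 8 genes passed the filter in the cebpd comparison. edgeR called none of them, at 0 with an unadjusted p under 0.05, and DESeq2 called none. Over 11103 genes edgeR called 0.135%, and DESeq2 0.0991% higher and 0.351% lower. slc15a2 had 5.94, 8.64 and 5.80 CPM in knockout brain, against 11.2, 6.0 and 11.3 CPM in wild type brain. One wild type library lay within the range of the knockout ones, and the log2 fold change was -0.48 (SE 0.26, 95% interval -1.05 to 0.08, edgeR adjusted p = 0.662). podxl, with 48.0, 49.3 and 49.6 CPM in knockout and 52.0, 44.7 and 44.7 CPM in wild type brain, had 0.06 (SE 0.09). lrp2a (-0.15, SE 0.15), nphs1 (0.07, SE 0.34) and agxt2 (0.18, SE 0.31) overlapped between genotypes too. None of the 5 separated by genotype, where 7.03% of all tested genes lay higher in all knockout libraries and 6.67% lower.

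Low levels of tubule genes set the brains of the ablation experiment apart from those of the cebpd experiment. cdh17 had 8.85 to 12.3 CPM over the 4 brain libraries of the ablation experiment (658 reads), against 0.0 to 0.319 CPM over the 6 of the cebpd experiment (2 reads). hnf1ba had 5.30 to 6.37 CPM (370 reads) against 0.0 to 0.319 CPM (3 reads). These levels, not scaled by TMM, did not follow the ablation: they were found in ablated and uninjured brains alike. The experiments lay closer for other genes of the set, with lrp2a at a mean of 37.5 CPM against 26.9 CPM and podxl at 76.3 CPM against 48.0 CPM.

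The brain level of cdh17 in the ablation experiment was 0.298% of its mean level in kidney marrow, and that of hnf1ba 0.88%. To see whether other nephron genes had a like ratio, those with at least 100 CPM in kidney marrow and under 0.5 CPM in the cebpd brains were taken, which makes the second value low by selection. For these 15 genes the brain level was 0.265% to 0.898% of that in kidney marrow in the ablation experiment (median 0.337%), against 0.0% to 0.299% in the cebpd experiment (median 0.0258%). Over all 60 genes of any kind chosen in this way the median was 0.367% in the ablation experiment. The experiments differ in their libraries and depth, and what sets these levels was not tested. The brain values of cdh17 and hnf1ba above rest on these low levels.

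**Figure D4:**
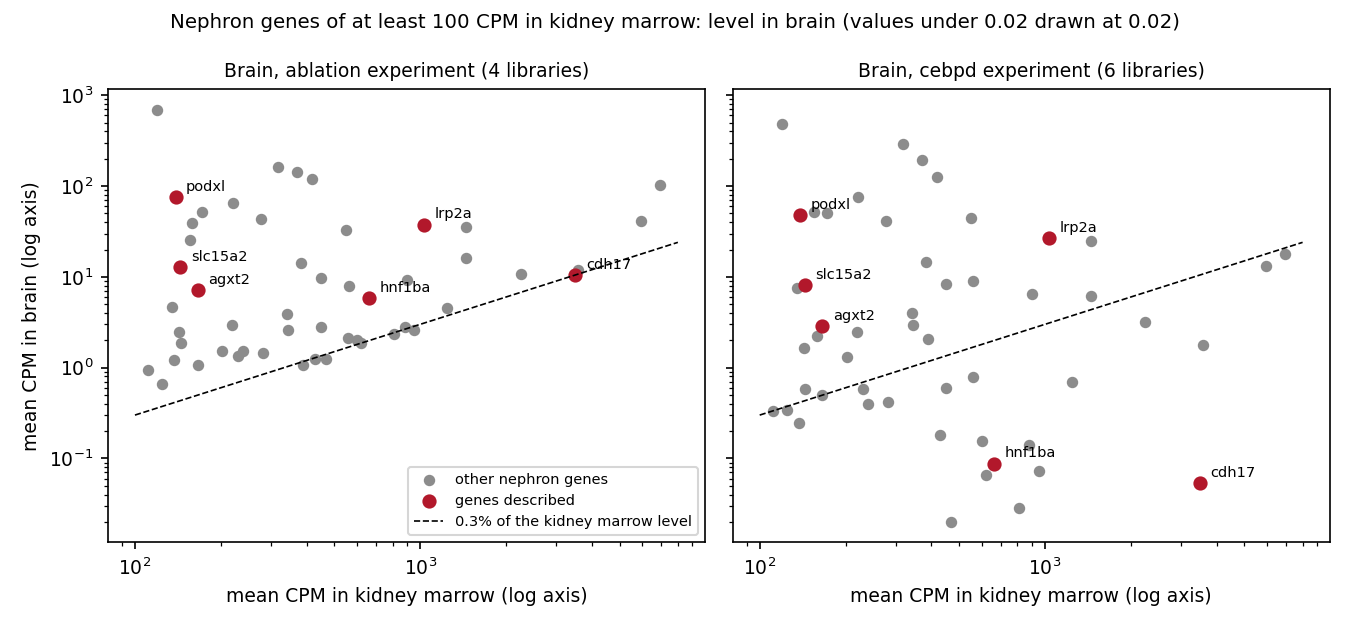
Mean CPM in brain against mean CPM in kidney marrow (both log axes) of nephron genes with at least 100 CPM in kidney marrow, for the 4 brain libraries of the ablation experiment (left) and the 6 of the cebpd experiment (right); red points are the genes described above, grey points other nephron genes, and the dashed line marks 0.3% of the kidney marrow level. On the left the lowest points lie along the line, with cdh17 at 10.4 CPM; on the right cdh17 is at 0.0531 CPM, and values under 0.02 CPM are drawn at 0.02.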

How the data were processed

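RNA-seq of 14 libraries in 6 groups was analysed; the 10 ATAC-seq samples of the series were not analysed here. The authors deposited unnormalized counts of reads for each gene symbol; 5 summary lines per file were left out of all fits. Per the submitters' processing notes, both assays share 1 list of tools, namely Bowtie2 2.2.5, HTSeq 1.6.1, MACS2, Picard 1.91, SAMtools 1.5, TopHat2 2.1.1 and Trim Galore 0.4.1 and 0.6.4, and the build danRer10. Not given in the sources used here were the annotation, the strand setting and the rule for multi-mapping reads. Reads outside genes took 37.4% to 41.5% of the total in kidney marrow and 56.6% to 58.3% in brain, and ambiguous reads 0.254% to 1.23%.

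Comparisons were fitted with edgeR 4.0.16 in R 4.3.3 (filterByExpr, TMM, glmQLFit, glmQLFTest), on the groups compared and without a replicate block, with Benjamini-Hochberg adjustment over all tested genes and a threshold of 0.05. SE were derived from the F statistic. Centred levels used a prior count of 2. The fits were also run on simulated counts. The changes set there were larger than those of the 8 genes between ablated and uninjured kidney marrow. The spread set there was smaller than that of kidney marrow. That run therefore does not show how the fits perform at the changes and spread seen in kidney marrow. Alternatives were DESeq2 1.42.0, RLE size factors, fits without the low-count filter or at mean counts of 50 or more, omission of each library or of the 50 most abundant genes, a block for the replicate number, a fit with the brain libraries and scaling to the other nephron genes. Chosen after seeing the data were the brain level as a percent of kidney marrow, the share of gene pairs and the list counts and calls under each alternative.

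The 8 genes and all lists were chosen with earlier results of these data known. In each nephron list the 4 further genes with the highest mean level in kidney marrow were named, whatever their change, and the 6 genes outside the lists nearest in profile among those of at least 5 CPM. 1 gene that the rule names is not reported here. Genes named outside this rule are marked.

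Over all tested genes, same-numbered replicates hardly deviated together (correlations of -0.058 to 0.110). Single lists could differ from that. In kidney marrow, replicate 2 lay above replicate 1 for 0 of 15 cell cycle and 0 of 11 erythroid genes in both groups. Germ cell genes had 0 of 7 in the uninjured group and 7 of 7 in the ablated one. The labels give no pairing, so numbers were not taken as pairs.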

Additional observations from a re-analysis of the deposited data

How the results depend on the processing

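Limits. With 2 libraries per group, kidney marrow had a biological coefficient of variation of 16.4% and brain of 5.56%, and kidney marrow calls depended on the method. DESeq2 called 418 genes higher and 173 lower in kidney marrow, with 2 of the 8 nephron genes among the lower; the fit with the brain libraries called 912 and 440, with 3 of the 8; scaling to the other nephron genes called 34 higher. Without 1 library, 0 to 1 genes were higher. In brain, no low-count filter gave 36 lower genes, and leaving out 1 library gave 25 to 99 higher, 12 to 101 lower and 0 to 1 of the nephron genes. In the cebpd comparison DESeq2 called 11 higher and 39 lower, no filter 14 and 27, and leaving out 1 library 2 to 12 and 4 to 77. For the interaction DESeq2 called 157 higher and 85 lower, and leaving out 1 library 0 to 198 and 0 to 115. The cause of these shifts was not tested.

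With the replicate block, edgeR called 433 genes higher and 165 lower of the 12160 tested in kidney marrow. Of the 106 nephron list genes it called 12 lower and 3 higher. Among the lower were 3 of the 8 genes: slc15a2 (adjusted p = 0.0431), hnf4a (adjusted p = 0.0429) and lrp2a (adjusted p = 0.0429). It called 163 and 195 in brain, 20 and 40 in the cebpd comparison and 88 and 20 for the interaction. The samples share only a replicate number.

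Signs turned for some single genes. Scaled to the other nephron genes, where the median of all genes was 0.27, the log2 fold change was 0.014 for cdh17, 0.25 for podxl, 0.14 for agxt2, 0.26 for actn4, 0.072 for mafba, 0.074 for dag1, 0.083 for cd2ap, 0.13 for pdzk1ip1, lrpap1 and atp1a1a.4, 0.048 for ddc, 0.052 for gldc, 0.10 for rhcgb, 0.007 for hnf1bb and 0.080 for pax2a. Apart from cdh17, podxl and agxt2, these genes are themselves part of the reads used for scaling, of which ddc supplied 18.1% and atp1a1a.4 9.31%. Leaving out 1 kidney marrow library gave -0.092 to 0.28 for nphs1, -0.11 to 0.062 for podxl, -0.12 to 0.10 for actn4, -0.40 to 0.085 for pdzk1ip1, -0.53 to 0.15 for gldc, -0.57 to 0.025 for atp1a1a.3 and -0.69 to 0.58 for rhcgb. In brain it gave -0.18 to 0.26 for slc15a2, -0.11 to 0.032 for lrp2a and -0.25 to 0.006 for agxt2, in the cebpd comparison -0.15 to 0.30 for nphs1, and for the interaction -0.26 to 0.14 for cdh17 and -0.16 to 0.11 for agxt2. No other sign turned among the genes named by rule, and slc15a2, hnf4a, hnf1ba and lrp2a stayed below 0 in kidney marrow under all 12 alternatives. Among genes whose sign did not turn without a library, leaving out 1 moved values towards 0 by over 1.5 times: to -0.32 for lrp2a, -0.050 for agxt2, -0.080 for lrpap1 and ddc and -0.044 for atp1a1a.4 without ablated replicate 1; to -0.21 for irx3b, -0.23 for dab2 and -0.17 for hnf1bb without ablated replicate 2; to -0.19 for dab2 without uninjured replicate 1; and to -0.30 for hnf1ba, -0.024 for agxt2, -0.35 for fbp1b, -0.26 for irx1a and -0.18 for hnf1bb without uninjured replicate 2.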

Other observations

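Against the median of their lists, some nephron genes were higher in both ablated kidney marrow libraries; they were chosen after their values were seen, and edgeR called none of the genes named here in the fit of the 4 kidney marrow libraries. In the podocyte list, tcf21, a transcription factor gene, had 9.16 and 7.27 CPM in ablated kidney marrow, against 3.97 and 4.76 CPM in uninjured kidney marrow (log2 fold change 0.91, SE 0.22, adjusted p = 0.13). The transcription factor genes wt1a (0.53, SE 0.21) and foxc1a (0.48, SE 0.19) had ablated libraries above the uninjured ones too. nphs1 overlapped between groups, so these podocyte genes did not vary as one.

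In the proximal list, the sulfate transporter gene slc26a1 had 395 and 762 CPM after ablation, against 284 and 333 CPM in uninjured kidney marrow, and the brush border peptidase genes ggt1a (81.4 and 235 CPM against 43.7 and 79.1 CPM) and enpep (211 and 290.4 CPM against 118 and 183 CPM) followed the same order. Ablated replicate 2 was the highest library for these 3 genes. The sulfate transporter gene slc13a1 had its highest level there as well, at 656 CPM against 264 CPM in ablated replicate 1 and 279 and 313 CPM in uninjured kidney marrow. In the distal list stc1l, which encodes a stanniocalcin, a calcium-lowering hormone of fish, had 993 and 433 CPM after ablation, against 39.0 and 217 CPM in uninjured kidney marrow (2.48, SE 0.86, adjusted p = 0.213). By ratio, the uninjured libraries differed from each other by more than the nearest libraries of the groups did. Which cells the stc1l reads came from was not tested, so they are not read as a change of the distal tubule. In the opposite direction, slc6a18, an amino acid transporter gene of the proximal list, had 37.1 and 47.7 CPM after ablation, against 96.3 and 136 CPM in uninjured kidney marrow (-1.45, SE 0.22, edgeR adjusted p = 0.0859). DESeq2 called slc6a18 lower (adjusted p = 4.56e-07). So did edgeR in the fit with the brain libraries (adjusted p = 0.00789), which takes its spread from both tissues.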
